A study of Mus musculus with 12 samples.

Results

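The mRNA of 10 genes of the Toll-like receptor system was followed in DC2.4, an immortalised dendritic cell line of the mouse, after exposure to T cell vesicles. They are 8 receptors (Tlr1, Tlr2, Tlr3, Tlr4, Tlr6, Tlr7, Tlr8 and Tlr9), the adaptor Myd88 and the trafficking chaperone Unc93b1, chosen by name from the 42687 genes of the count table. All 10 were found and all 10 passed the filter on low counts. The 12 libraries formed 4 groups of 3, all of wild-type DC2.4 cells. PBS cells received phosphate-buffered saline. ATEV cells received 15 µg/mL of vesicles, taken here as those of activated T cells, since the labels spell out only the name of the next group. NTEV cells received vesicles of non-activated T cells at 30 µg/mL. DNase-ATEV cells received 15 µg/mL of ATEV pretreated with Baseline-ZERO DNase, which degrades DNA. The labels put a vesicle DNA dose of 5 µg/mL beside the NTEV dose; whether it also describes the ATEV dose is unclear. The labels mention harvesting, replating and 3 repeats without saying whether these were rounds on the same cells or separate experiments. The labels do not state whether replicate libraries were separate cultures, so the p-values measure the spread among these samples, which may be technical. DC2.4 is an established line, so the libraries describe 1 cell line.

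Toll-like receptors are membrane proteins that recognise conserved microbial molecules and some host molecules released by damaged cells. Tlr1, Tlr2, Tlr4 and Tlr6 act mainly at the cell surface on lipoproteins and lipopolysaccharide, whereas Tlr3, Tlr7, Tlr8 and Tlr9 act in endosomes on nucleic acids, Tlr9 on DNA with unmethylated CpG. Unc93b1 carries the nucleic acid receptors from the endoplasmic reticulum to endosomes. Myd88 passes the signal of all these receptors except Tlr3 to Irak kinases, NF-kB and interferon regulatory factors, while Tlr3 signals through Ticam1 (TRIF). Dendritic cells use these receptors to start maturation and cytokine production.

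Library totals ran from 19.4 to 30.4 M counts (M, 1e6). On the first principal component of all tested genes, which held 34.9% of the variance, NTEV replicate 1 (-21.5) and DNase-ATEV replicate 1 (-30.4) lay among the PBS libraries (-41.8 to -14.6). Where a fold change of the 10 genes that involves these groups is printed by gene, the value without the library concerned is also given. Not every such fold change is printed. Of the 11 dendritic lineage markers examined, 6 stayed under 10 counts in every library, among them Flt3, Ccr7 and Xcr1, and Clec9a was at 0, while Itgax, Irf8, Cd74, Zbtb46 and Batf3 were detected. The summed CPM of this list was 222 to 249 in PBS, 323 to 384 in ATEV, 224 to 260 in NTEV and 256 to 355 in DNase-ATEV. All 5 myeloid markers were detected. Their summed CPM was 2465 to 2907 in PBS, 3664 to 6422 in ATEV, 3626 to 4188 in NTEV and 2209 to 2485 in DNase-ATEV, with Lyz2 alone at 1198 to 5413 CPM over the libraries. Of the 10 T cell markers, 7 stayed under 10 counts in every library, with Cd3e and Cd8a at 0, while Cd28 had 634 to 2196 counts, Lck 151 to 430 and Cd5 16 to 73. The summed CPM of this list was 60.04 to 102 in PBS, 44.7 to 63.7 in ATEV, 36.1 to 53.9 in NTEV and 55.8 to 62.2 in DNase-ATEV. All 5 B cell markers stayed under 10 counts. The part of these marker levels in the receptor results was not tested. In bulk RNA, fewer cells of a type and less RNA per cell cannot be told apart.

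Promoter sequences are shown for Tlr3, the member whose mRNA passed the test, and for Myd88, the shared adaptor. RefSeq (GRCm38.p6) sequences were matched for 7 of the 10 genes, and the 250 bases before the start site were searched on both strands for an interferon-stimulated response element (ISRE: GAAA, any 2 bases, GAAA), a gamma-activated site (GAS: TTC, any 3 bases, GAA) and an NF-kB site (kB: GGG, any 2 bases, TTTCC). Capitals mark the matches, and both sequences read 5′ to 3′ on the gene's strand, which is the minus strand for each.
Tlr3, chr8:45410381-45410630: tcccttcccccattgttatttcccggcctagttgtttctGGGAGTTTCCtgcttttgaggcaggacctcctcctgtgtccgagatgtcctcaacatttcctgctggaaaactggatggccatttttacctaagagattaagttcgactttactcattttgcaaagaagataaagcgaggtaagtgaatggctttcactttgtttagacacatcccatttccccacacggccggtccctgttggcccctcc
Myd88, chr9:119340019-119340268: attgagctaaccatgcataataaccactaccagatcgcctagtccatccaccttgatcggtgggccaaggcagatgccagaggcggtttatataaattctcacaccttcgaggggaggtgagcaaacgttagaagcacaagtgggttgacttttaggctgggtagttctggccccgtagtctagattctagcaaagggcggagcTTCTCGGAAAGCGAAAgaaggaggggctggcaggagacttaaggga
The Tlr3 window held 1 kB match, starting 211 bases before the start site, and no ISRE or GAS letters. The Myd88 window held a GAS match 46 bases before the start and an ISRE match 40 bases before it, which overlap. Among the other windows, Tlr1 and Tlr8 held 1 GAS match each and 1 of the 2 Tlr6 starts held 2 overlapping ISRE matches, whereas Tlr2 and Tlr9 held none. Over 32851 promoter windows of the same length, 2.98% held the ISRE letters, 7.02% the GAS letters and 1.41% the kB letters. A match describes letters only.

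The 10 genes spanned a wide range of abundance. Levels between genes were compared as CPM (counts per 1e6, scaled by TMM) per kb of exon, averaged over the 12 libraries. Unc93b1 had the highest mean of the 10 at 48.8 ± 11 CPM per kb (SD, n = 12). It lay above Tlr2 in 12, above Tlr7 in 11 and above Myd88 in 10 of 12 libraries. In PBS alone it was close to Myd88, at means of 38.3 ± 4.66 and 36.6 ± 5.65 CPM per kb (SD, n = 3). Tlr2 (33.9 CPM per kb), Tlr7 (32.4 CPM per kb) and Myd88 (30.0 CPM per kb) could not be ordered over all 12 libraries. Tlr2 lay above Tlr7, and Tlr7 above Myd88, in only 7 of 12. By group, Tlr2 lay below Tlr7 in every PBS library, at means of 26.7 and 34.8 CPM per kb. In ATEV, Tlr2 lay above Tlr7 in every library, at means of 40.7 and 30.3 CPM per kb. The order of these receptors was mixed in NTEV and DNase-ATEV. Tlr4, the lipopolysaccharide receptor, followed at 8.63 CPM per kb, below Myd88 in 12 of 12 libraries. Tlr9 stood at 6.06, Tlr6 at 3.98, Tlr8 at 2.65 and Tlr1 at 1.80 CPM per kb, and each of these lay above the next in 10 or 11 of 12 libraries, with Tlr1 above Tlr3 in 12 of 12. Tlr3 was the least abundant member at 0.509 ± 0.270 CPM per kb (SD, n = 12), from 25 to 119 counts a library.

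**Figure D1:**
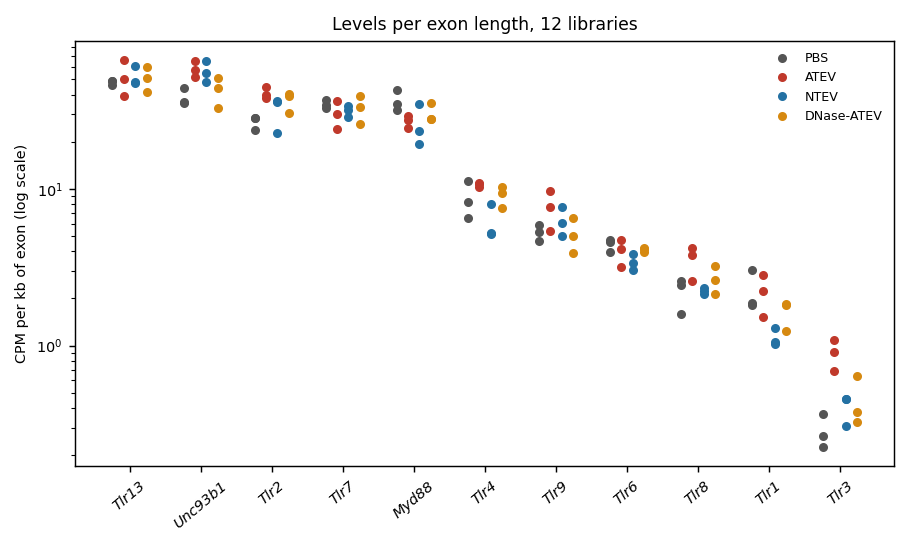
Levels of 11 genes per exon length (CPM per kb, log scale), 1 point per library, coloured by group. Unc93b1, Tlr2, Tlr7, Myd88 and Tlr13 form the upper tier and Tlr3 sits lowest, with its ATEV points above the rest.

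Of the 4 mouse Toll-like receptors outside the set, only Tlr13, an endosomal receptor for bacterial ribosomal RNA, was abundant. Its level of 50.8 ± 7.94 CPM per kb (SD, n = 12) was above that of Unc93b1 in 8 of 12 libraries. Tlr13 did not pass the test in any of the 5 comparisons, with a log2 fold change of 0.11 for ATEV against PBS (adjusted p = 0.719, edgeR). Tlr12 had 0 to 6 counts a library, Tlr5 had 0 to 2 counts, and Tlr11 had 0 counts in all 12 libraries, which allows up to 3 counts in each.

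Tlr3, the endosomal receptor for double-stranded RNA, was the only member whose mRNA passed the test in any comparison, and it rose with ATEV. Its level was 1.92, 1.17 and 1.38 CPM in the PBS libraries and 3.57, 5.68 and 4.72 CPM in the ATEV libraries. It was 2.38, 1.60 and 2.39 CPM in NTEV and 3.32, 1.70 and 1.96 CPM in DNase-ATEV. All 3 ATEV libraries lay above every other library, and the other 3 groups overlapped one another. The rise over PBS was 3.10-fold, a log2 fold change of 1.63 ± 0.31 (SE, n = 3 against 3; adjusted p = 0.0116, edgeR quasi-likelihood test with Benjamini-Hochberg adjustment over 13261 genes). Tlr3 no longer passed when PBS replicate 2 (adjusted p = 0.0803), PBS replicate 3 (0.0507) or ATEV replicate 2 (0.0621) was left out, while the log2 fold change stayed between 1.46 and 1.87. The annotation places an antisense gene, Gm45542, over 7.32% of the Tlr3 exons. Gm45542 had 0 or 1 counts in every library. The strand setting of the counting is not given, and the part of Gm45542 in the Tlr3 values was not tested.

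ATEV exceeded DNase-ATEV in Tlr3 by 1.00 ± 0.31 on the log2 scale (SE; 95% interval 0.34 to 1.66) and NTEV by 1.13 ± 0.31 (95% interval 0.47 to 1.79). Neither difference passed the test over all genes (adjusted p = 0.153 and 0.134, edgeR), nor without DNase-ATEV replicate 1 (1.35, adjusted p = 0.0687) or NTEV replicate 1 (1.23, adjusted p = 0.179). On all 12 libraries, DESeq2 called the difference from NTEV (adjusted p = 0.0254). Against PBS, Tlr3 had a log2 fold change of 0.63 in DNase-ATEV (adjusted p = 0.824), which was 0.28 without DNase-ATEV replicate 1 (adjusted p = 0.686). In NTEV it was 0.50 (adjusted p = 0.408), and 0.42 without NTEV replicate 1. These comparisons share the PBS or the ATEV libraries, so they are not independent of one another.

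**Figure D2:**
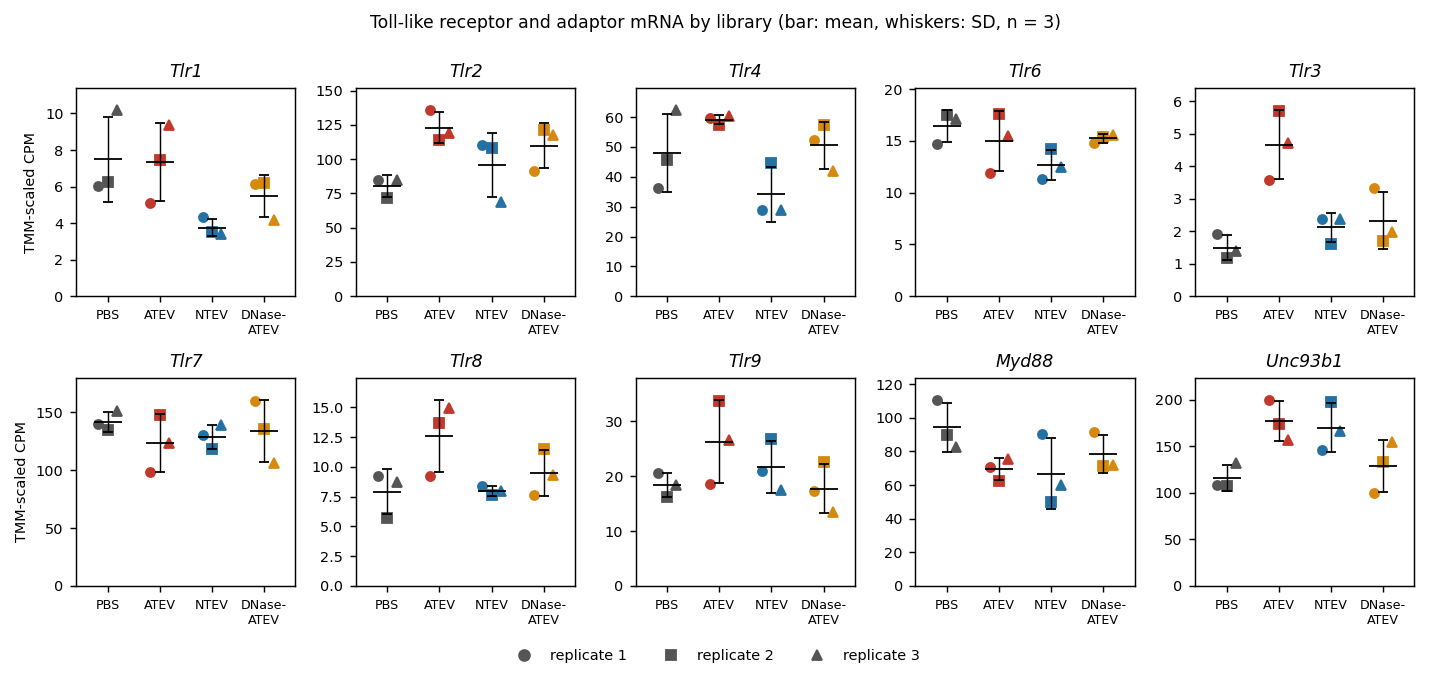
TMM-scaled CPM of the 10 genes, 1 point per library (symbol: replicate number), with the group mean and SD (n = 3). Tlr3 is the only panel in which the ATEV points lie above all other groups.

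The other endosomal receptors of the set did not pass the test in any comparison. Tlr7, which recognises single-stranded RNA, was the most abundant of them at 140, 135 and 151 CPM in PBS and 98.9, 148 and 124 CPM in ATEV. The Tlr7 libraries of these groups overlapped, with a log2 fold change of -0.20 (95% interval -0.56 to 0.16, adjusted p = 0.450, edgeR). In NTEV, Tlr7 was 130, 118 and 139 CPM, and in DNase-ATEV it was 160, 136 and 107 CPM. No group stood apart for this gene.

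Tlr8, whose human counterpart also binds single-stranded RNA, was 9.27, 5.73 and 8.75 CPM in PBS and 9.21, 13.7 and 15.0 CPM in ATEV. ATEV replicates 2 and 3 lay above every PBS library and ATEV replicate 1 among them, with a log2 fold change of 0.67 ± 0.23 (standard error; adjusted p = 0.10, edgeR). Without ATEV replicate 1 it passed at 0.85 (adjusted p = 0.0456). NTEV gave 8.39, 7.61 and 7.96 CPM and DNase-ATEV 7.66, 11.51 and 9.35 CPM.

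Tlr9, the CpG DNA receptor, was 20.6, 16.2 and 18.5 CPM in PBS, 18.6, 33.8 and 26.6 CPM in ATEV, 21.0, 26.8 and 17.5 CPM in NTEV and 17.3, 22.5 and 13.5 CPM in DNase-ATEV. ATEV replicate 2 held the highest Tlr9 value, but ATEV replicate 1 fell within the PBS range. The log2 fold change was 0.51 for ATEV against PBS (95% interval 0.00 to 1.03, adjusted p = 0.185, edgeR) and 0.57 for ATEV against DNase-ATEV (95% interval 0.05 to 1.08, adjusted p = 0.283). For DNase-ATEV against PBS it was -0.05 (95% interval -0.57 to 0.46). Without DNase-ATEV replicate 1 these last values were 0.56 and -0.045.

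Unc93b1 had higher values in all 6 ATEV and NTEV libraries than in any PBS library, short of the threshold over all genes. It stood at 108, 108 and 133 CPM in PBS and at 200, 174 and 157 CPM in ATEV, with every ATEV library above every PBS library. The log2 fold change was 0.61 ± 0.17 (SE, adjusted p = 0.0607, edgeR). It passed in 8 of 19 alternatives, among them DESeq2 (adjusted p = 0.0161) and the fit on the 2 groups alone (0.0256), while over all alternatives the adjusted p ran from 0.0140 to 0.212.

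The NTEV libraries held 146, 198 and 167 CPM of Unc93b1, also all above PBS, with a log2 fold change of 0.55 ± 0.17 (standard error; adjusted p = 0.115, edgeR). Without NTEV replicate 1 it was 0.66 and passed (adjusted p = 0.0362). DNase-ATEV libraries were spread over 99.3, 133 and 154 CPM, from below to above all PBS libraries, with a log2 fold change of 0.15 against PBS (95% interval -0.22 to 0.52, adjusted p = 0.856). Without DNase-ATEV replicate 1 it was 0.30 (adjusted p = 0.418), and without DNase-ATEV replicate 3 it was 0.0033. ATEV lay above DNase-ATEV in every library, by 0.45 on the log2 scale (adjusted p = 0.240), which was also 0.30 without DNase-ATEV replicate 1 (adjusted p = 0.527).

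Myd88 was 111, 90.0 and 82.5 CPM in PBS and 70.6, 62.6 and 75.4 CPM in ATEV. Every ATEV library lay below every PBS library, with a log2 fold change of -0.44 ± 0.20 (standard error; adjusted p = 0.173, edgeR). NTEV replicate 1 held 90.2 CPM, within the PBS range, and NTEV replicates 2 and 3 held 49.97 and 60.1 CPM, below it. For NTEV against PBS the log2 fold change was -0.50 (adjusted p = 0.191), and without NTEV replicate 1 Myd88 fell by 0.77 on the log2 scale (adjusted p = 0.0149). DNase-ATEV gave 91.5, 71.5 and 72.1 CPM, overlapping PBS. The annotation places 11.3% of the Myd88 exons over Acaa1a on the opposite strand. Acaa1a was at 44.8 ± 4.64 CPM in PBS and 56.6 ± 6.79 CPM in ATEV (SD, n = 3), and its part in the Myd88 values was not tested.

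As a description, Unc93b1 and Myd88 levels ran opposite to each other across libraries. The ratio of Unc93b1 to Myd88 in CPM per kb was 0.832, 1.02 and 1.37 in PBS, 2.404, 2.37 and 1.77 in ATEV, 1.37, 3.36 and 2.36 in NTEV and 0.922, 1.59 and 1.82 in DNase-ATEV. Their log2 levels had a Pearson r of -0.82 over 12 libraries (permutation p = 0.00111, adjusted 0.050 over 45 pairs) and a Spearman rho of -0.84 (permutation p = 0.00121, adjusted 0.0544). With the 2 libraries farthest from the median Myd88 level left out r was -0.75, and after removal of the group means it was -0.74. No other pair among the 45 had an adjusted p of Pearson's r under 0.208. The libraries share groups and scaling, so they are not fully independent points. No background over gene pairs outside the set is given, and the part of the first principal component in this correlation was not tested.

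Of the surface receptors, Tlr2 came closest to the threshold. This receptor of lipoproteins was 84.9, 71.4 and 84.9 CPM in PBS and 136, 114 and 119 CPM in ATEV, with no overlap. The log2 fold change was 0.61 ± 0.18 (SE, adjusted p = 0.0616, edgeR). It passed in 6 of 19 alternatives, among them DESeq2 (adjusted p = 0.0228), and the adjusted p ran from 0.0154 to 0.233. Among the other groups, DNase-ATEV held 91.3, 121 and 117 CPM of Tlr2, again all above PBS, with a log2 fold change of 0.45 (95% interval 0.07 to 0.83, adjusted p = 0.768), and 0.56 without DNase-ATEV replicate 1 (adjusted p = 0.329). NTEV replicates 1 and 2 held 110 and 108 CPM and replicate 3 held 69.0 CPM, below all PBS libraries. ATEV and DNase-ATEV differed in Tlr2 by 0.16 on the log2 scale (95% interval -0.22 to 0.54), and by 0.050 without DNase-ATEV replicate 1.

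Tlr1, which pairs with Tlr2 on triacylated lipoproteins, was lowest in NTEV. It was 6.03, 6.24 and 10.2 CPM in PBS, 5.12, 7.45 and 9.38 CPM in ATEV, 4.31, 3.52 and 3.43 CPM in NTEV and 6.11, 6.20 and 4.17 CPM in DNase-ATEV. The NTEV libraries lay below all PBS and ATEV libraries. The log2 fold change of NTEV against PBS was -0.99 ± 0.28 (SE, adjusted p = 0.0833, edgeR) and reached -1.09 without NTEV replicate 1 (adjusted p = 0.0417). For ATEV against PBS it was -0.03 (95% interval -0.62 to 0.55). Tlr1 exceeded NTEV in ATEV by 0.96 (adjusted p = 0.171; 1.07 and 0.186 without NTEV replicate 1), which passed without ATEV replicate 1 at 1.16 (adjusted p = 0.0474) and with DESeq2 (0.0371).

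Tlr6, the partner of Tlr2 on diacylated lipoproteins, was 14.7, 17.5 and 17.1 CPM in PBS and 11.9, 17.6 and 15.5 CPM in ATEV, which overlapped. In NTEV it was 11.3, 14.2 and 12.5 CPM, all below PBS, with a log2 fold change of -0.37 (adjusted p = 0.231, edgeR), and -0.28 without NTEV replicate 1. DNase-ATEV held 14.8, 15.4 and 15.5 CPM. Tlr1 and Tlr6 are close paralogs: 454 windows of 50 bases were identical between them, 13.6% of those in Tlr1 and 12.3% of those in Tlr6, so reads there could have been split between the genes.

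Tlr4 was 36.3, 45.5 and 62.3 CPM in PBS, 59.7, 57.3 and 60.2 CPM in ATEV, 28.8, 44.7 and 29.0 CPM in NTEV and 52.2, 57.5 and 42.0 CPM in DNase-ATEV. The PBS libraries spanned most of the range of all groups, and ATEV lay above NTEV in every library. The ATEV excess over NTEV was 0.79 ± 0.21 on the log2 scale (SE, adjusted p = 0.126, edgeR). It was 0.68 without NTEV replicate 1 (adjusted p = 0.252), and passed without NTEV replicate 2 at 1.04 (adjusted p = 0.0239) and with DESeq2 (0.0229). Against PBS, the log2 fold change was 0.30 in ATEV (adjusted p = 0.365) and -0.49 in NTEV (adjusted p = 0.221), the latter -0.37 without NTEV replicate 1.

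**Figure D3:**
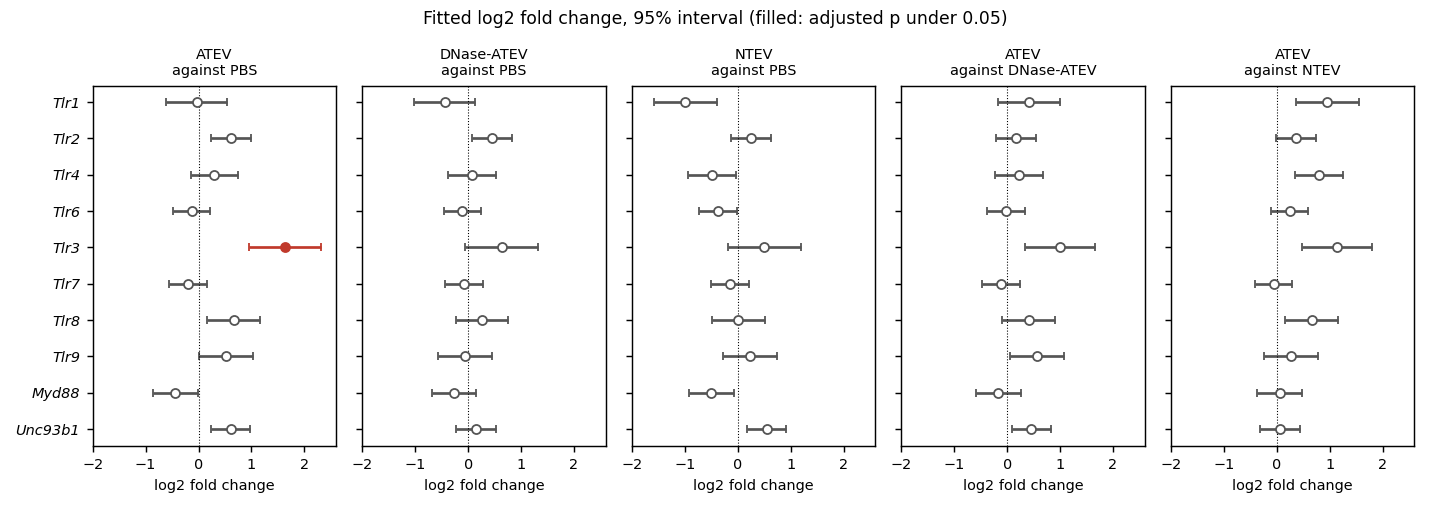
Fitted log2 fold change of the 10 genes in the 5 comparisons, with 95% intervals (edgeR). Only Tlr3 in ATEV against PBS, at 1.63, passed the threshold over all genes and is filled.

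Counted over the 10 genes, ATEV against PBS gave 1 call (Tlr3), where 4.74% of all tested genes were called. The libraries of 4 of the 10 genes (Tlr2, Tlr3, Myd88 and Unc93b1) did not overlap between these groups, against 33.1% of all genes, so that share is near the background. An unadjusted p under 0.05 was found for 6 of the 10, against 26.8% of all genes. The median log2 fold change was 0.41 for the 10 genes and 0.03 for all genes tested. The 10 genes were chosen with earlier results of these data known. Their shares in this and the other comparisons are therefore descriptions only.

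The other comparisons gave no call among the 10 with edgeR. For DNase-ATEV against PBS, 1 of the 10 had an unadjusted p under 0.05, against 5.96% of all genes, and neither DESeq2 nor limma-voom called any. The background was 0% called and 13.4% without overlap, against 1 of the 10 (Tlr2), and the median log2 fold change of the 10 was 0.01. For NTEV against PBS, 5 of the 10 had an unadjusted p under 0.05, against 19.1% of all genes. DESeq2 called 2 (Tlr1 and Unc93b1), against 6.33% of all genes, and limma-voom none. With edgeR, 2.31% of all genes were called and 23.8% did not overlap, against 3 of the 10 (Tlr1, Tlr6 and Unc93b1). Without NTEV replicate 1, 3 of the 10 were called (Tlr1, Myd88 and Unc93b1), where 12.5% of all genes were.

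For ATEV against DNase-ATEV, 3 of the 10 had an unadjusted p under 0.05, against 15.2% of all genes, and neither DESeq2 nor limma-voom called any. The background was 1.46% called and 20.2% without overlap, against 2 of the 10 (Tlr3 and Unc93b1). For ATEV against NTEV, at unequal vesicle doses, 4 of the 10 had an unadjusted p under 0.05, against 13.4% of all genes. DESeq2 called 3 (Tlr1, Tlr3 and Tlr4), against 2.81% of all genes, and limma-voom none. With edgeR, 0.935% of all genes were called and 15.8% did not overlap, against 5 of the 10 (Tlr1, Tlr2, Tlr3, Tlr4 and Tlr8). The median log2 fold change of the 10 was 0.32 in both comparisons, against 0.00 and -0.01 for all genes.

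Summed over their locations, the surface and endosomal receptors of the set differed in their ranges. Only the set is covered, so the sums, the Tlr7 share and the Unc93b1 ratio leave out the endosomal Tlr13. Tlr13 alone had a mean of 50.8 CPM per kb over the 12 libraries. The 4 surface receptors summed to 38.4 to 47.0 CPM per kb in PBS and 55.1 to 60.4 CPM per kb in ATEV, without overlap, and Tlr2 made up most of that sum. NTEV, at 32.5 to 48.8, overlapped PBS, and DNase-ATEV, at 45.5 to 56.5, overlapped both PBS and ATEV. The 4 endosomal receptors summed to 39.5 to 45.1 CPM per kb in PBS and 32.8 to 50.9 CPM per kb in ATEV, which overlapped. Tlr7 made up 40.3 to 42.3% of the 8 receptors in PBS and 26.0 to 34.3% in ATEV, with NTEV (32.9 to 45.9%) and DNase-ATEV (30.8 to 42.4%) overlapping both. Unc93b1 per endosomal receptor was 0.828 to 0.970 in PBS, 1.13 to 2.01 in ATEV, 1.18 to 1.67 in NTEV and 0.698 to 1.55 in DNase-ATEV. These sums are descriptions and carry no test.

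**Figure D4:**
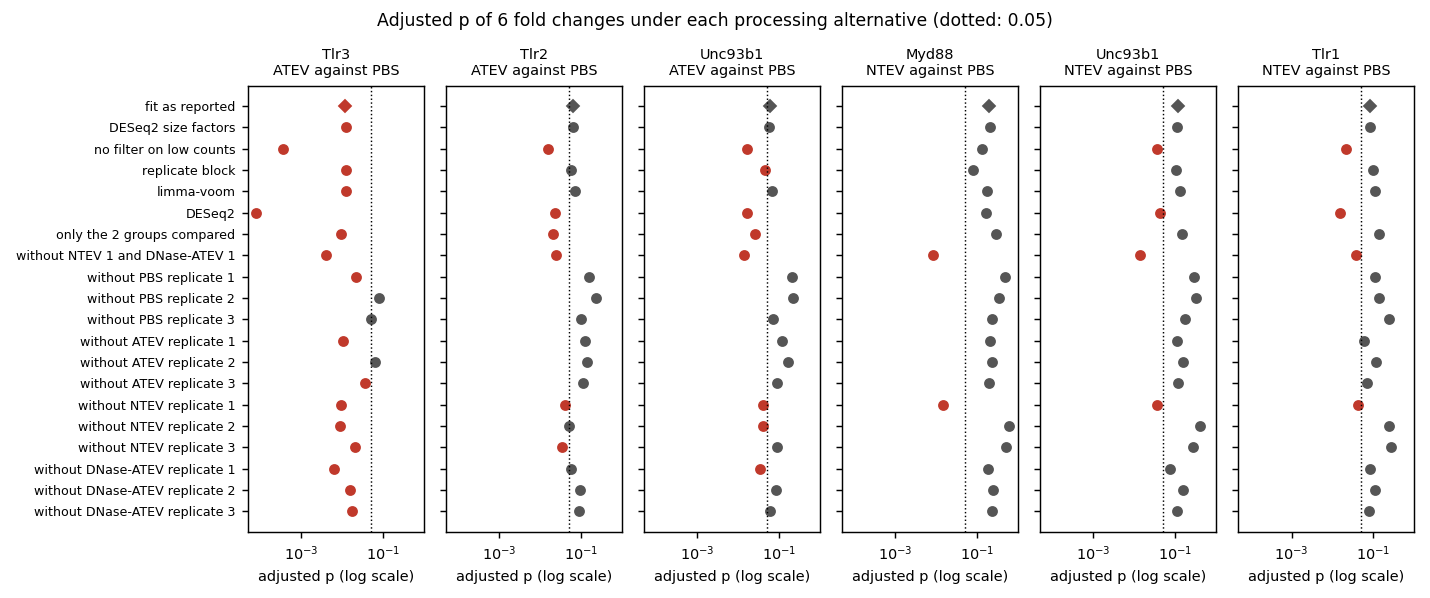
Adjusted p (log scale) of 6 fold changes in the fit as reported (diamond) and in 19 alternatives (circles), red under 0.05. Tlr3 passed in 16 of 19, whereas Myd88 in NTEV passed only when NTEV replicate 1 was left out.

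The wider pathway was described by 90 genes in 8 lists, of which 82 were tested. The lists were chosen with earlier results of these data known, so their shares beside those of all genes are descriptions only. For ATEV against PBS, 12 of the 82 were called, all higher in ATEV, where 3.32% of all genes were called higher and 1.42% lower. Their median log2 fold change was 0.17, against 0.03 for all genes. For NTEV against PBS, 10 were called, all higher, against a background of 1.7% higher and 0.611% lower. For ATEV against DNase-ATEV, 7 were called, all higher, against 1.32% of all genes higher and 0.143% lower. For ATEV against NTEV, 3 were called, all higher, against 0.875% higher and 0.0603% lower. For DNase-ATEV against PBS edgeR called none, and 5 of the 82 had an unadjusted p under 0.05, a share near the 5.96% of all genes. The 32 calls fell on 19 genes, and 8 of the 32 were kept in every fit that left out 1 library: Irf7 in 3 comparisons, Trafd1 in 2, and Ctsk, Ctss and Ikbke in 1 each. The other 24 calls were each lost in at least 1 of the 12 such fits.

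Upstream of signalling, among 8 genes of ligand capture, Cd36, a scavenger receptor that assists Tlr2 and Tlr6, rose with ATEV by 1.09 on the log2 scale (adjusted p = 0.0197, edgeR). Lbp, which hands lipopolysaccharide to Cd14, rose with NTEV by 1.65 (adjusted p = 0.0159), from 23 to 34 counts a library in PBS to 78 to 108. Cd36 was lost when replicate 2 or 3 of either PBS or ATEV was left out (adjusted p at most 0.120), and Lbp without any PBS replicate or NTEV replicate 2 or 3 (at most 0.0774). Of the 9 folding and transport genes, which include the chaperones Hsp90b1 and Cnpy3, edgeR called none in any comparison, with a median of -0.07 for ATEV against PBS and 0 of the 9 at an unadjusted p under 0.05.

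Among 10 endosomal proteases and nucleases, which trim receptors and digest nucleic acids, 3 rose with ATEV and 2 with NTEV. Ctss (cathepsin S) rose with ATEV from 581 ± 68.1 to 1014 ± 126 CPM (SD, n = 3), a log2 fold change of 0.80 (adjusted p = 0.00437, edgeR). It was 592 ± 22.1 CPM in NTEV, below ATEV by a log2 difference of 0.78 (adjusted p = 0.00978), a call lost without NTEV replicate 3 (0.0789). Ctsk (cathepsin K) rose with NTEV by 1.13 (adjusted p = 0.00296) and with ATEV by 0.56 (adjusted p = 0.0424). In DNase-ATEV, Ctsk was 0.57 above PBS, uncalled (adjusted p = 0.438, edgeR). ATEV differed from DNase-ATEV in Ctsk by -0.013 (adjusted p = 0.977). The exonucleases Pld4 and Pld3 degrade single-stranded nucleic acids in endosomes. Pld4 rose with ATEV by 0.63 (adjusted p = 0.0493) and Pld3 with NTEV by 0.89 (adjusted p = 0.0377). Pld3 was also 0.63 above PBS in ATEV, uncalled (adjusted p = 0.0820, edgeR). For ATEV against NTEV, neither Pld4 (0.42, adjusted p = 0.311) nor Pld3 (-0.26, adjusted p = 0.579) was called. The calls of Pld3, of Pld4 and of Ctsk with ATEV were each lost in at least 7 of the 12 fits without 1 library, with adjusted p up to 0.20.

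None of the 4 tested adaptors other than Myd88 was called by edgeR; the smallest adjusted p for ATEV against PBS was 0.149, with 1 of the 4 at an unadjusted p under 0.05. Among 18 kinases and ubiquitin ligases, Ikbke, a kinase of interferon regulatory factors, rose with ATEV over PBS by 0.91 (adjusted p = 0.00878, edgeR) and over DNase-ATEV by 1.00 (adjusted p = 0.00698). The former was lost without PBS replicate 2 (0.0530). Irak2, a kinase below Myd88, rose with ATEV by 0.84 (adjusted p = 0.0309). It was also above PBS in DNase-ATEV by 0.72 (adjusted p = 0.562, edgeR) and in NTEV by 0.55 (0.158), both uncalled. ATEV and DNase-ATEV differed in Irak2 by 0.12 (adjusted p = 0.80). Ikbkg, the regulatory subunit of the IkB kinase, rose with NTEV by 0.60 (adjusted p = 0.0287). Irak2 was lost when replicate 1 or 2 of either PBS or ATEV was left out (adjusted p up to 0.132), and Ikbkg without any PBS replicate or NTEV replicate 2 or 3 (up to 0.151).

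Of 10 transcription factors, Irf7, which drives type I interferon genes below Tlr7 and Tlr9, had the largest rise with ATEV among those called. Irf7 was 3.92, 2.91 and 3.19 CPM in PBS and 19.2, 12.0 and 11.4 CPM in ATEV, with 3.55, 5.69 and 3.83 CPM in NTEV and 5.06, 3.93 and 4.42 CPM in DNase-ATEV. ATEV stood above every other library, by a log2 difference of 2.08 over PBS (adjusted p = 0.000561, edgeR), 1.67 over DNase-ATEV (0.00416) and 1.70 over NTEV (0.00355). Irf8 rose with ATEV by 0.55 over PBS (adjusted p = 0.0322) and 0.70 over DNase-ATEV (0.0136), and Nfkb2 with NTEV by 0.83 (0.0324). Without 1 library these Irf8 calls were lost in 7 and 3 of 12 fits and that of Nfkb2 in 6, with adjusted p up to 0.176.

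Among 12 inhibitors, Trafd1, a negative regulator of innate signalling, rose with ATEV by 1.49 over PBS (adjusted p = 0.00136, edgeR), 1.34 over DNase-ATEV (0.00490) and 1.00 over NTEV (0.0377). The last of these was lost in 6 of the 12 fits without 1 library (adjusted p up to 0.173). With NTEV, Irak3 rose, a kinase-like inhibitor of Irak signalling, by 0.82 (adjusted p = 0.0131), as did Tnip1 by 0.60 (0.0200) and Nfkbia, the NF-kB inhibitor, by 0.68 (0.0228). Nfkbia also rose with ATEV, by 0.52 (0.0453). Irak3 was lost in 3, Tnip1 in 4, and Nfkbia in 5 (NTEV) and 8 (ATEV) of the 12 fits without 1 library, with adjusted p up to 0.176.

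Of 18 target genes, 11 were tested, and 7, among them Il6, Il1b, Il12b and Ifnb1, did not pass the filter on low counts. Ccl5, a chemokine, rose with ATEV by 2.11 (adjusted p = 0.0274, edgeR) and with NTEV by 2.89 (0.0116). Its counts a library were low, at 9 to 22 in PBS, 43 to 78 in ATEV, 43 to 202 in NTEV and 10 to 17 in DNase-ATEV. Saa3, an acute-phase protein, rose with ATEV by 2.42 (0.0140) and with NTEV by 2.66 (0.0169). ATEV exceeded DNase-ATEV in Ccl5 by 2.22 (0.0404), in Saa3 by 2.65 (0.0130) and in Tnf by 1.36 (0.0319). Against PBS, Tnf was uncalled in ATEV (0.82, adjusted p = 0.0992, edgeR) and in DNase-ATEV (-0.54, 0.826). The PBS libraries held 11.2, 14.1 and 27.6 CPM of Tnf. Saa3 was spread widely within ATEV, at 48.6, 77.9 and 189.8 CPM, against 31.0, 15.1 and 13.1 CPM in PBS. Each of these 7 calls was lost in 2 to 7 of the 12 fits without 1 library, with adjusted p up to 0.187.

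Among 9436 genes with a mean of at least 5 CPM, those whose log2 CPM followed Tlr3 most closely over the 12 libraries were Trim30a (r = 0.96), Parp12 (r = 0.96) and Cd36 (r = 0.93), given as a description of likeness, since the libraries share groups and scaling. After removal of group means r was 0.84, 0.89 and 0.80. Trim30a stood at mean CPM of 4.55 in PBS, 15.2 in ATEV, 6.93 in NTEV and 6.60 in DNase-ATEV. Its log2 fold change for ATEV against PBS was 1.73 (adjusted p = 0.00459, edgeR). Because Trim30a was picked by its likeness to Tlr3 in these same libraries, that p is not separate evidence. Parp12 was at 33.5, 51.4, 40.1 and 37.4 CPM in the same order of groups.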

How the data were processed

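Per the labels, mRNA of 12 DC2.4 libraries was sequenced from TruSeq stranded libraries. Per the submitters' processing notes, bcl2fastq 2.19, TopHat2 2.0.11, TopHat, Cufflinks 2.1.1 and build mm9 were used. For the read counter, annotation and strand setting, nothing is given in the sources used here. The deposited values are whole-number counts per gene, as raw as the authors' file shows them. Of 42687 gene IDs, 42250 matched a GENCODE M21 symbol. That annotation gave exon lengths and overlaps, and belongs to another build, so no gene coordinates are printed; promoter coordinates are RefSeq's.

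In R 4.3.3 with edgeR 4.0.16, genes were kept by filterByExpr (minimum count 10, minimum total 15; 13261 genes), scaled by TMM and fitted with 1 mean per group over all 12 libraries (common biological coefficient of variation 0.183). The two-sided quasi-likelihood test was adjusted by Benjamini-Hochberg over all genes within each of 5 contrasts, with a gene called at an adjusted p under 0.05. Standard errors follow from the F statistic. DESeq2 1.42.0 and limma-voom (limma 3.58.1) were alternatives, with 19 alternatives in all. The script was tested on simulated counts. Replicates differed by more than counting noise (chi-square per degree of freedom 14.7 to 130), so none was counted as a copy. Floors for counts of 0 cover counting error only.

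The members and gene lists were chosen with earlier results of these data known. Named genes are the 10 members, the other mouse Toll-like receptors, up to 4 called genes per pathway list and contrast with the smallest adjusted p, and the 3 genes most correlated with each called member. Correlations used 100000 permutations.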

Additional observations from a re-analysis of the deposited data

How the results depend on the processing

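Of 950 fold changes of the 10 genes under 19 alternatives (50 results), 3 lost a call, all of Tlr3 with 1 library left out, 31 gained one and 22 changed sign, each of these uncalled. With 1 library left out, the number of members called ranged from 0 to 3 for ATEV against PBS, 0 to 3 for NTEV against PBS and 0 to 1 for ATEV against NTEV, and stayed 0 for both other comparisons. The number over all genes then ranged from 169 to 1288 (628 as reported) for ATEV against PBS, 0 to 8 (0) for DNase-ATEV against PBS, 34 to 1685 (306) for NTEV against PBS, 78 to 522 (194) for ATEV against DNase-ATEV and 70 to 302 (124) for ATEV against NTEV. For ATEV against PBS, members called were 3 with no filter on low counts, 3 with DESeq2, 3 with only the 2 groups, 3 without NTEV replicate 1 and DNase-ATEV replicate 1 together, and 2 with the replicate block; all genes called were 1317, 1510, 1244, 1922 and 1440. For DNase-ATEV against PBS, all genes called were 47 with no filter, 35 with DESeq2, 19 without those 2 libraries and 1 with the block. For NTEV against PBS, members called were 2 with no filter, 2 with DESeq2 and 3 without those 2 libraries; all genes called were 876, 839 and 2254, and 19 with only the 2 groups. For ATEV against DNase-ATEV, all genes called were 394 with no filter and 495 with DESeq2. For ATEV against NTEV, members called were 1 with no filter and 3 with DESeq2, and all genes called were 242, 373 and, with only the 2 groups, 82. The cause was not tested.

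The replicate block used the numbers in the titles. Same-numbered libraries had correlations of deviations from -0.38 to 0.62, over 0.1 in 6 of 18 pairs. All 3 NTEV and DNase-ATEV pairs were over 0.1, but those groups were not compared with each other. Replicate 1 of PBS had 0.52 with replicate 1 of NTEV and 0.44 with that of DNase-ATEV. Replicate 1 of ATEV had -0.16, -0.32 and -0.38 with those of PBS, NTEV and DNase-ATEV. Libraries of different numbers ran from -0.54 to 0.44, over 0.1 in 12 of 36 pairs. In none of the 5 comparisons made were all 3 pairs over 0.1, so the numbers were not taken to pair those samples. The block added Unc93b1 to the calls of ATEV against PBS (adjusted p = 0.0437). Beyond that comparison, the block gave 343 genes for NTEV against PBS, 261 for ATEV against DNase-ATEV and 135 for ATEV against NTEV, with 0 members called in each.

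Without NTEV replicate 1 and DNase-ATEV replicate 1 together, the log2 fold change changed sign for Tlr8 in NTEV against PBS (-0.015), Tlr7 in ATEV against DNase-ATEV (0.025), Unc93b1 in ATEV against NTEV (-0.044) and Tlr13 in DNase-ATEV against PBS (-0.031). With 1 library left out, fold changes near 0 crossed it. For ATEV against PBS the ranges were -0.24 to 0.24 (Tlr1), -0.27 to 0.0096 (Tlr6) and -0.10 to 0.28 (Tlr13). For DNase-ATEV against PBS they were -0.083 to 0.30 (Tlr4), -0.24 to 0.062 (Tlr7), -0.26 to 0.11 (Tlr9) and -0.055 to 0.21 (Tlr13), and for NTEV against PBS -0.18 to 0.15 (Tlr8). For ATEV against DNase-ATEV they were -0.16 to 0.12 (Tlr6), -0.27 to 0.035 (Tlr7) and -0.19 to 0.19 (Tlr13), and for ATEV against NTEV -0.21 to 0.080 (Tlr7), -0.11 to 0.34 (Myd88), -0.044 to 0.19 (Unc93b1) and -0.23 to 0.16 (Tlr13). Tlr3, at 25 to 119 counts a library, has the largest counting error of the 10.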
